A study of Mus musculus with 6 samples.

Results

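Oligodendrocyte precursor cells (OPCs) carry a characteristic set of surface receptors and proteoglycans, and 10 genes of this set were followed in WT and DISC1-Δ3 OPCs. They were the rows of the deposited table whose symbol was Pdgfra, Cspg4, Cspg5, Ptprz1, Gpr17, Lhfpl3, Vcan, Bcan, Ncan or Neu4. All 10 were found among 18211 genes, and all 10 were among the 13792 genes tested. DISC1-Δ3 mice were C57BL/6 animals of the genotype NG2-CreERTM:DISC1 exon3 fl/+, in which tamoxifen removes exon 3 from a single Disc1 allele in cells that use the NG2 (Cspg4) promoter. WT mice carried no CreERT. Both genotypes received tamoxifen by gavage on 4 consecutive days, from postnatal day 4 to 7, and cells were collected on day 7 by immunopanning on Pdgfrα. RNA was sequenced without culture in 3 libraries per genotype. The allele and the CreERT transgene went together in these groups, so their parts cannot be told apart. The labels do not say whether a library was made from 1 animal, so the p-values measure the spread between these libraries.

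These genes are expressed at the precursor stage of the oligodendrocyte lineage, but several of them are expressed by other cell types too. PDGFRα is the receptor through which PDGF-AA drives OPC division, and it is lost as cells differentiate, whereas GPR17 is a G protein-coupled receptor of committed precursors. Chondroitin sulphate proteoglycans are core proteins with sulphated sugar chains. NG2 (Cspg4), neuroglycan C (Cspg5) and the receptor phosphatase PTPRZ1 are anchored in the membrane. Versican, brevican and neurocan (Vcan, Bcan, Ncan) are lecticans, secreted proteoglycans that link hyaluronan to tenascins in the brain matrix.

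The promoter windows of 4 genes are shown, since these genes moved in different directions: those of Pdgfra, Lhfpl3 and Cspg4, which rose, and of Ptprz1, which fell. Each window runs from 250 bases before to 50 bases after the annotated start in RefSeq on GRCm38.p6, on the plus strand, at chr5:75152001-75152300, chr5:22745804-22746103, chr9:56864854-56865153 and chr6:22875252-22875551. Capitals mark the E-box CANNTG, the letters read by helix-loop-helix factors such as OLIG2.
Pdgfra: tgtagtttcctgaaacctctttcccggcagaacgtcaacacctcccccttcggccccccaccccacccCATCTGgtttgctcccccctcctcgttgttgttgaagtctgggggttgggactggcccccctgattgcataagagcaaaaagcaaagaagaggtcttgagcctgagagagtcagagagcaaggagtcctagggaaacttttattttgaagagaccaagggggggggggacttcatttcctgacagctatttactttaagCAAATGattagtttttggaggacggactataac
Lhfpl3: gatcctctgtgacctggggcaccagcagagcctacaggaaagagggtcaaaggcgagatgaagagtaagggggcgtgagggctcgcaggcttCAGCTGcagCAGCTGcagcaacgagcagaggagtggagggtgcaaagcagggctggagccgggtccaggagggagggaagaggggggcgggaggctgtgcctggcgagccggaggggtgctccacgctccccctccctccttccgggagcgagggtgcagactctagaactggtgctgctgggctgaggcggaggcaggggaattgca
Cspg4: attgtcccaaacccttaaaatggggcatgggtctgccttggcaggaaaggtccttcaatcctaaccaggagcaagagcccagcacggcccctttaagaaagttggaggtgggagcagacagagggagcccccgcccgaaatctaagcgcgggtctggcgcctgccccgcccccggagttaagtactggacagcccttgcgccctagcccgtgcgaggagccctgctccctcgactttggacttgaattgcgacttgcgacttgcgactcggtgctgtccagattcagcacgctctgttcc
Ptprz1: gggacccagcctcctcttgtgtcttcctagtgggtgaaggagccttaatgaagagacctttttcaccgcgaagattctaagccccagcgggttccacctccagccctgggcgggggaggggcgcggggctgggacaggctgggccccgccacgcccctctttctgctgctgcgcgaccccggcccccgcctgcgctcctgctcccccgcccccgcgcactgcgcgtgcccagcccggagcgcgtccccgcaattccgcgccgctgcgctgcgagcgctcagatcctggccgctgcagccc

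An entry was found for 8 of the 10 genes, while Cspg5 and Gpr17 had none. CANNTG, searched on both strands, occurred 2 times in the Pdgfra window and 2 times in the Lhfpl3 window. It occurred 0 times in the windows of Cspg4, Ptprz1 and Bcan, 1 time in those of Neu4 and Vcan, and 4 times in that of Ncan. It was present in 72.3% of all 32851 windows. The HMG-box core ACAAAG, read by SOX factors, and the TCF/LEF core CTTTGAT were searched likewise. Both were found in 0 of the 8 windows, against 18.7% and 3.73% of all windows. CTTTGAT read on the other strand shares the letters CAAAG with ACAAAG. The GC content was 71.7% in the Ptprz1 window, 66.0% in that of Lhfpl3, 60.0% in that of Cspg4 and 51.0% in that of Pdgfra, with a median of 52.7% over all windows. A match, or its absence, describes these 300 letters and not the binding of a factor.

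The libraries held 13716619 to 16417219 reads assigned to genes, and 1 read was worth 0.0609 to 0.0729 CPM (counts scaled to the library total). No pair of replicates was alike enough to be 1 library deposited 2 times. The chi-square of their counts, divided by its degrees of freedom, was 1.81 to 2.92 between WT replicates and 2.65 between DISC1-Δ3 replicates 1 and 2. Pairs with DISC1-Δ3 replicate 3, which stood apart, reached 5.24 and 4.98. Disc1, the targeted gene, had 3.51, 3.34 and 3.81 RPKM in WT and 2.86, 2.44 and 2.85 RPKM in DISC1-Δ3 libraries, which edgeR put at -0.45 on the log2 scale (adjusted p = 0.000528); gene-level values do not resolve the deletion of exon 3. RPKM is the read count scaled for transcript length and library total, so levels can be compared between genes. The isolated cells were checked against marker lists. Pdgfra had a mean of 17.5 RPKM in WT libraries, while the microglial genes Cx3cr1, P2ry12 and Tmem119 had 475, 360 and 333 RPKM. The libraries therefore held RNA of several cell types beside OPC genes, and "OPCs" below stands for cells retained by the panning.

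In level, the 10 genes spanned a wide range, and 4 proteoglycan genes led, of which Bcan and Ncan encode matrix and Cspg5 and Ptprz1 membrane proteins. Bcan, encoding the brain-restricted lectican brevican, was the most abundant at 594 ± 3.73 RPKM in WT OPCs (SD, n = 3). Cspg5 followed at 260 ± 3.41, Ncan at 167 ± 9.80 and Ptprz1 at 102 ± 4.3 RPKM (SD, n = 3 each). Gpr17 was at 61.7 ± 1.49, Pdgfra at 17.5 ± 0.503 and Cspg4 at 15.8 ± 1.38 RPKM (SD, n = 3 each). Lhfpl3, Vcan and Neu4 closed the order at 11.1 ± 0.256, 7.74 ± 0.626 and 3.23 ± 0.270 RPKM (SD, n = 3 each). In every WT library Bcan stood at the 99.2 percentile of all genes, and Neu4 between the 44.1 and 46.4 percentiles. Pdgfra and Cspg4 were neighbours whose WT values overlapped, with 17.16 RPKM as the lowest Pdgfra and 17.19 RPKM as the highest Cspg4 value, so their order is within the spread. In DISC1-Δ3 OPCs the order of the mean levels was the same except that Gpr17, at 104 RPKM, passed Ptprz1, at 84.9 RPKM. The summed level of the set was 1226 to 1263 RPKM in WT and 1236 to 1308 RPKM in DISC1-Δ3 libraries, and these ranges overlapped. The set took 0.528% to 0.554% of WT reads and 0.546% to 0.571% of DISC1-Δ3 reads.

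**Figure D1:**
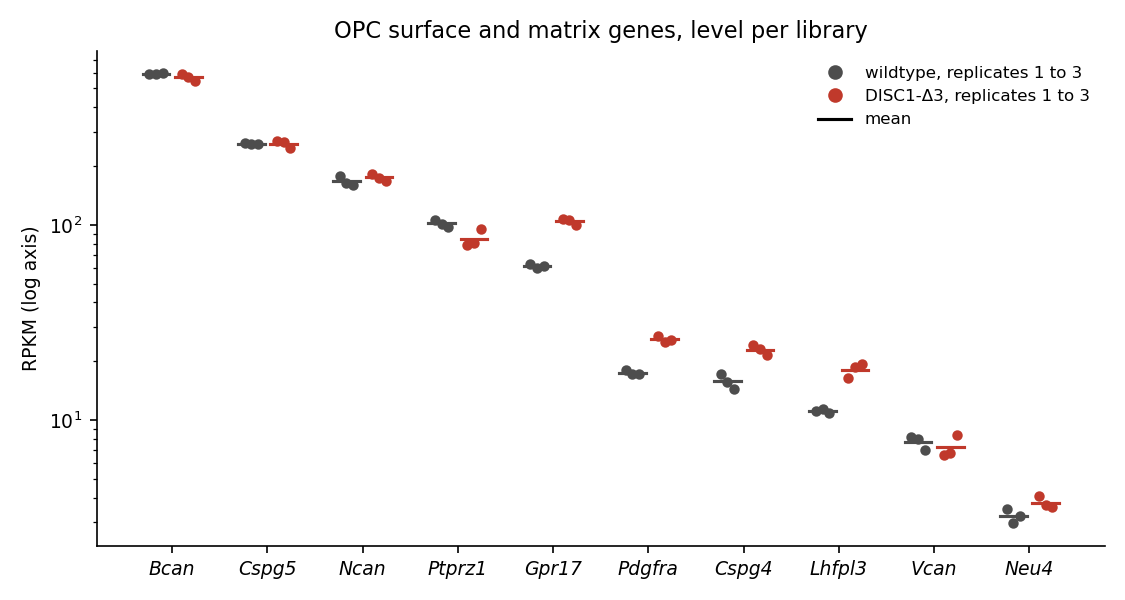
RPKM on a log axis of the 10 OPC surface and matrix genes in 3 WT (grey) and 3 DISC1-Δ3 (red) libraries, ordered by WT mean; points are libraries, replicates 1 to 3 from left to right, and lines are means. Gpr17, Pdgfra, Cspg4, Lhfpl3 and, by a small gap, Neu4 lie above their WT values in every DISC1-Δ3 library. Ptprz1 lies below, and the values of Bcan, Cspg5, Ncan and Vcan overlap.

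Genotypes were compared on read counts across all tested genes with edgeR, scaled by TMM, a factor per library that corrects for a shift in composition. Of the 10 genes, Gpr17, Lhfpl3, Pdgfra and Cspg4 were higher in DISC1-Δ3 OPCs, Ptprz1 and Bcan were lower, and Cspg5, Ncan, Vcan and Neu4 did not pass the threshold of an adjusted p under 0.05. Changes were frequent in these libraries: 39.9% of all tested genes passed, 20.4% as higher and 19.5% as lower, so the share of 6 in 10 is to be read against that background. The median log2 fold change was 0.07 over the 10 genes and 0.0075 over all tested genes. Of all genes called, 51.1% were higher, but 69.2% were higher when library totals alone set the scaling and 38.4% when the libraries were scaled to a list of oligodendroglial lineage genes. The values of Neu4 and of the 4 higher genes did not overlap between genotypes, nor did those of Ptprz1. Such a gap was common too, in 52.0% of tested genes, 35.9% as higher and 16.1% as lower. In bulk RNA, more cells of a type and more RNA per cell cannot be told apart, which holds for each difference given here.

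**Figure D2:**
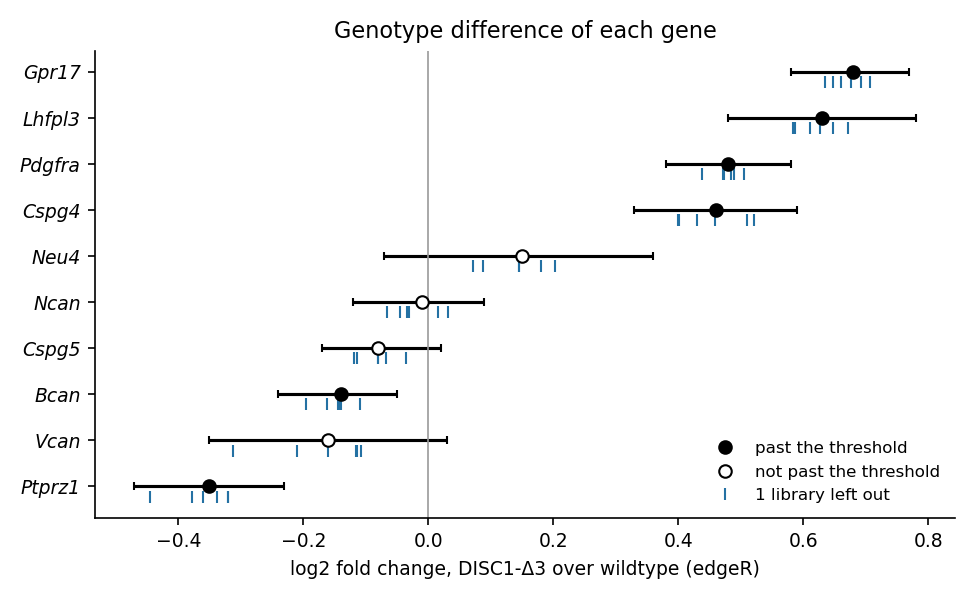
Log2 fold change of each gene, DISC1-Δ3 over WT, from edgeR with 3 libraries per genotype; circles are estimates with 95% confidence intervals (filled, past the threshold), and blue ticks are the estimates with 1 library left out. Gpr17, Lhfpl3, Pdgfra and Cspg4 lie between 0.46 and 0.68, Ptprz1 lies at -0.35, and the interval of Bcan ends at -0.05, close to 0.

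Among the receptors and other membrane proteins, 3 of 4 genes rose. Pdgfra (gene ID 18595; chromosome 5, bases 75152292 to 75198215, plus strand, GRCm38, which is mm10) had 18.06, 17.22 and 17.16 RPKM in WT and 26.79, 24.96 and 25.83 RPKM in DISC1-Δ3 replicates 1 to 3. Every DISC1-Δ3 library was above every WT library. Pdgfra rose 1.40-fold after TMM scaling, or by 0.48 on the log2 scale with a standard error of 0.047 (adjusted p = 2.42e-07). The ratio of the mean RPKM was 1.48, since RPKM is not corrected for composition and the TMM factors were 0.970 to 0.973 in WT and 1.02 to 1.04 in DISC1-Δ3 libraries. The product of Pdgfra was also the antigen on which the cells were selected. It is expressed by fibroblasts of the leptomeninges too, and of 10 genes on a fibroblast list 1 was higher and 0 lower, with summed levels of 78.9 to 81.7 RPKM in WT and 90.0 to 96.9 RPKM in DISC1-Δ3 libraries; its part in the Pdgfra difference was not tested.

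Gpr17 (gene ID 574402) had the largest rise of the 10 genes. It had 63.30, 60.32 and 61.60 RPKM in WT against 107.49, 105.33 and 100.26 RPKM in DISC1-Δ3 replicates 1 to 3, from 4375 to 5086 and 7726 to 8582 reads. Both groups were tight and stood well apart. The rise was 0.68 on the log2 scale with a standard error of 0.044 (adjusted p = 1.39e-09), above the change of 94.8% of tested genes. Relative to Pdgfra within the same library, Gpr17 had a ratio of RPKM of 3.51, 3.50 and 3.59 in WT and 4.01, 4.22 and 3.88 in DISC1-Δ3 replicates 1 to 3. This ratio does not depend on scaling, and it was higher in all 3 DISC1-Δ3 libraries, by 0.19 on the log2 scale (two-sided exact permutation p = 0.1, the smallest that 3 against 3 libraries allow). In the annotation an exon of Gpr17 overlaps an exon of Lims2 on the other strand. Strand was not stated for these counts, so reads there cannot be told apart. Lims2, looked up for this overlap, had a mean of 21.7 RPKM in WT and 29.8 RPKM in DISC1-Δ3 libraries (log2 fold change 0.38, adjusted p = 0.00103).

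Lhfpl3 (gene ID 269629; chromosome 5, bases 22746059 to 23275597, plus strand), which encodes a membrane protein of the LHFPL tetraspan family, had 11.17, 11.38 and 10.87 RPKM in WT. It had 16.46, 18.64 and 19.24 RPKM in DISC1-Δ3 replicates 1 to 3. The WT values were within a narrow band, and the lowest DISC1-Δ3 value was replicate 1. Lhfpl3 rose 1.55-fold, or by 0.63 on the log2 scale with a standard error of 0.072 (adjusted p = 1.64e-06). Antisense transcripts are annotated over exons of Pdgfra and Lhfpl3, and were not analysed here.

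Neu4 (gene ID 241159; chromosome 1, bases 94020451 to 94028334, plus strand), which encodes a sialidase that removes sialic acid from glycoconjugates, was the least abundant gene. Its values were 3.50, 2.96 and 3.22 RPKM in WT and 4.06, 3.65 and 3.59 RPKM in DISC1-Δ3 replicates 1 to 3, from 210 to 258 reads per library. The groups did not overlap in RPKM, but the gap between 3.50 and 3.59 was smaller than the SD of 0.270 among WT libraries. Neu4 had a log2 fold change of 0.15 with a 95% confidence interval of -0.07 to 0.36 (adjusted p = 0.274). The estimates for Pdgfra, Gpr17, Lhfpl3 and Cspg4 lie above this interval, but the interval of Cspg4, 0.33 to 0.59, overlaps it. Differences between genes were not tested. The summed level of Pdgfra, Gpr17, Lhfpl3 and Neu4 was 91.9 to 96.0 RPKM in WT and 149 to 155 RPKM in DISC1-Δ3 libraries.

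Among the membrane proteoglycans, 1 gene rose, 1 fell and 1 did not pass the threshold. Cspg4 (gene ID 121021; chromosome 9, bases 56865033 to 56899870, plus strand) had 17.19, 15.74 and 14.43 RPKM in WT and 24.21, 23.21 and 21.43 RPKM in DISC1-Δ3 replicates 1 to 3. The highest WT value stayed below the lowest DISC1-Δ3 value. The rise of Cspg4 was 0.46 on the log2 scale with a standard error of 0.062 (adjusted p = 1.15e-05), and it ran from 0.40 to 0.52 with each library left out in turn. NG2 also coats pericytes. Of 10 pericyte and smooth muscle genes 9 were higher and 0 lower, with summed levels of 169 to 179 RPKM in WT and 236 to 243 RPKM in DISC1-Δ3 libraries; Pdgfrb, Rgs5 and Kcnj8 had log2 fold changes of 0.21, 0.50 and 0.44. The part of pericytes in the Cspg4 difference was not tested.

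Ptprz1 (gene ID 19283; chromosome 6, bases 22875502 to 23052916, plus strand) encodes a receptor tyrosine phosphatase whose shed or spliced extracellular form is phosphacan. It had 106.33, 100.45 and 97.96 RPKM in WT and 78.54, 80.69 and 95.37 RPKM in DISC1-Δ3 replicates 1 to 3. Replicates 1 and 2 of DISC1-Δ3 were far below WT, and replicate 3 lay just under the lowest WT library. Ptprz1 changed by -0.35 on the log2 scale with a standard error of 0.058 (adjusted p = 9.16e-05), and by -0.44 (adjusted p = 4.87e-10) without DISC1-Δ3 replicate 3. Ptprz1 is also expressed by astrocytes. Of 12 astrocyte genes 8 were lower and 2 higher, with summed levels of 2824 to 2892 RPKM in WT and 2596 to 2665 RPKM in DISC1-Δ3 libraries. The astrocyte genes Aldh1l1 and Aqp4 had log2 fold changes of -0.30 and -0.28, while Gfap was at 0.34. The part of astrocytes in the Ptprz1 difference was not tested.

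Cspg5 (gene ID 29873; chromosome 9, bases 110243783 to 110262576, plus strand), a transmembrane proteoglycan with an EGF-like domain, had 263.86, 257.77 and 258.14 RPKM in WT and 268.93, 266.32 and 247.02 RPKM in DISC1-Δ3 replicates 1 to 3. Replicate 3 of DISC1-Δ3 was below all WT libraries and replicates 1 and 2 were above them. Its log2 fold change was -0.08 with a 95% confidence interval of -0.17 to 0.02 (adjusted p = 0.192), and 0.0061 when library totals alone set the scaling.

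Of the 3 lecticans, 0 were called higher and 1, Bcan, was called lower. Bcan (gene ID 12032; chromosome 3, bases 87987531 to 88000230, minus strand) had 593.53, 589.92 and 597.37 RPKM in WT and 592.37, 568.78 and 547.53 RPKM in DISC1-Δ3 replicates 1 to 3. Replicate 1 of DISC1-Δ3 lay within the WT range. Bcan was 0.91-fold of WT, or -0.14 on the log2 scale with a standard error of 0.044 (adjusted p = 0.0155). Without WT replicate 2 or WT replicate 3 the adjusted p was 0.0663 and 0.0647, and with library totals alone the log2 fold change was -0.06 (adjusted p = 0.217).

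Ncan (gene ID 13004; chromosome 8, bases 70093085 to 70120873, minus strand) had 177.82, 162.74 and 159.44 RPKM in WT and 182.03, 174.16 and 167.77 RPKM in DISC1-Δ3 replicates 1 to 3. The groups overlapped through WT replicate 1. Its log2 fold change of -0.01 had a 95% confidence interval of -0.12 to 0.09 (adjusted p = 0.834). The ratio of Ncan to Bcan RPKM was 0.281 ± 0.0169 in WT and 0.307 ± 0.000579 in DISC1-Δ3 OPCs (SD, n = 3 each), with every DISC1-Δ3 library above every WT library (two-sided exact permutation p = 0.1, the smallest possible). Of the summed RPKM of Vcan, Bcan and Ncan, Bcan made up 76.1% to 78.2% in WT and 75.7% to 75.9% in DISC1-Δ3 libraries, and Ncan 20.9% to 22.8% and 23.2% to 23.3%.

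Vcan (gene ID 13003; chromosome 13, bases 89655312 to 89742509, minus strand) had 8.2, 8.0 and 7.03 RPKM in WT and 6.63, 6.81 and 8.33 RPKM in DISC1-Δ3 replicates 1 to 3. Its lowest and its highest value were both DISC1-Δ3 libraries. The log2 fold change was -0.16 with a 95% confidence interval of -0.35 to 0.03 (adjusted p = 0.168). Without DISC1-Δ3 replicate 3 it was -0.31 (adjusted p = 0.000294), and with all libraries scaled to the lineage list it was -0.22 (adjusted p = 0.0446), so the call of Vcan depends on that library and on the scaling. Gene-level values do not resolve the splice forms of Vcan, Bcan or Ptprz1.

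Vcan and Ptprz1 shared their exception in DISC1-Δ3 replicate 3. In log2 CPM with TMM scaling, Vcan was 0.40 and Ptprz1 0.24 above the mean of replicates 1 and 2 in that library. Cspg4, Cspg5, Bcan, Neu4, Gpr17, Ncan and Pdgfra were 0.17 to 0.03 below it, and Lhfpl3 was 0.11 above. Transcript length, as implied by reads and RPKM, moved with this deviation over all tested genes. The median deviation was -0.053 for 1293 genes under 1000 bases and 0.134 for 1221 genes over 6000 bases. For WT replicate 3 against WT replicates 1 and 2 it ran the other way, from 0.050 to -0.057. The median log2 fold change between genotypes was -0.006 and -0.056 in these classes. Vcan and Ptprz1 were at 7597 and 7828 bases, but Ncan and Cspg4, at 7019 and 7905 bases, deviated downward in DISC1-Δ3 replicate 3. The part of length in the values of Vcan and Ptprz1 was not tested.

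**Figure D3:**
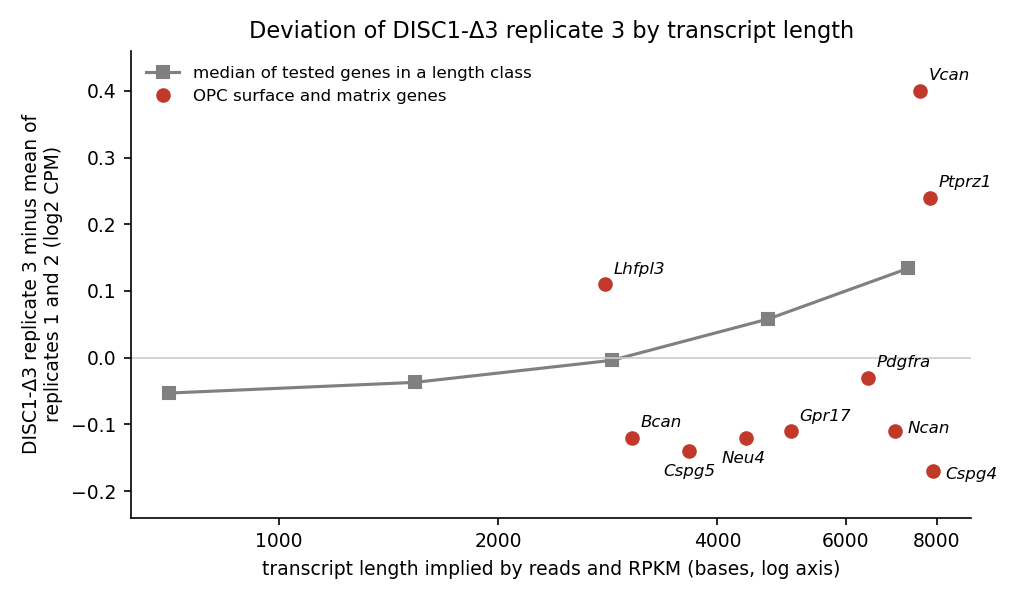
Deviation of DISC1-Δ3 replicate 3 from the mean of replicates 1 and 2, in log2 CPM with TMM scaling, against implied transcript length on a log axis. Red points are the 10 genes, and grey squares are medians of tested genes in 5 length classes, placed at the median length. The grey line climbs from -0.053 to 0.134, Vcan (0.40) and Ptprz1 (0.24) lie above it, and Cspg4 and Ncan, of similar length, lie below 0.

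The set was set beside markers of the lineage and of other cell types. Counts on these lists are to be read against 20.4% higher and 19.5% lower over all tested genes. Of 18 other OPC genes, 15 were higher and 1 lower, with a median log2 fold change of 0.55; their summed level was 403 to 414 RPKM in WT and 511 to 525 RPKM in DISC1-Δ3 libraries. Matn4, C1ql1 and Cacng4 of that list had log2 fold changes of 0.75, 0.74 and 0.28. The range of that list was wide, from -0.27 to 1.20. It held the rises of Pdgfra, Cspg4, Lhfpl3 and Gpr17, from 0.46 to 0.68, but also Bcan at -0.14. Of 15 genes of committed precursors and premyelinating cells, 2 were higher and 5 lower, with Bmp4, Enpp6 and Tcf7l2 at 1.0, -0.88 and 0.01. Of 13 tested mature oligodendrocyte genes 7 were lower and 2 higher (Mbp and Mag at -0.16 and -0.54).

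All 18 microglial genes were lower, with a median of -0.49 and summed levels of 17667 to 18004 RPKM in WT and 12476 to 12932 RPKM in DISC1-Δ3 libraries. With the libraries scaled to the oligodendroglial lineage list, Gpr17, Lhfpl3, Pdgfra and Cspg4 had log2 fold changes of 0.62, 0.57, 0.43 and 0.41, still past the threshold, and Ptprz1 was at -0.41. That list itself moved both ways, with 4 of 12 genes higher and 4 lower, so this scaling is not a correction for cell composition. Among neuronal genes 10 of 12 were higher (Snap25, Syt1 and Rbfox3 at 0.48, 0.96 and 0.41), and among endothelial genes 5 of 10 (Cldn5, Pecam1 and Flt1 at 0.39, 0.04 and 0.29). All 7 erythrocyte genes were higher, with summed levels of 9344 to 9567 RPKM in WT and 16650 to 18150 RPKM in DISC1-Δ3 libraries. Of 12 genes of dividing cells 2 were higher and 1 lower, with summed levels of 265 to 274 RPKM in WT and 285 to 294 RPKM in DISC1-Δ3 libraries. The lower gene, Mki67, was at -0.34, but its highest value, 5.52 RPKM, was in DISC1-Δ3 replicate 3. Top2a and Ccnb1 were at 0.03 and 0.19 and did not pass the threshold. None of the first 3 genes of any list was at 0 in a library. The part of these cell types in the differences of the 10 genes was not tested.

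**Figure D4:**
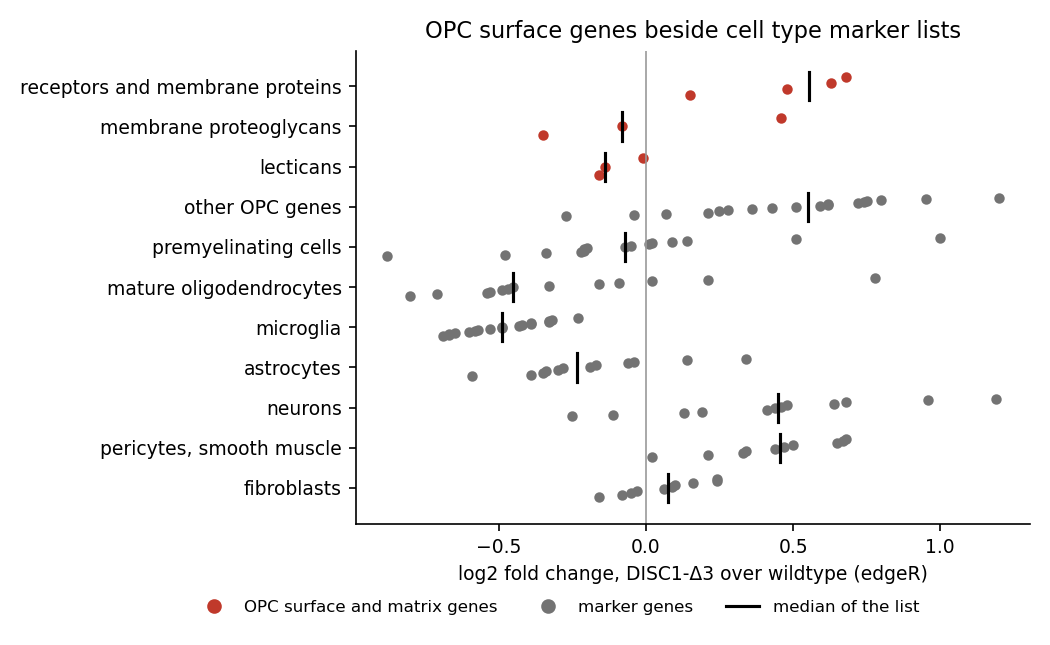
Log2 fold change, DISC1-Δ3 over WT (edgeR, 3 libraries per genotype), of each of the 10 genes by role (red) and of tested genes on 8 cell type marker lists (grey); points are genes, staggered by rank, and black lines are medians. The receptors and other membrane proteins have a median of 0.56, beside 0.55 for other OPC genes, 0.45 for neurons and 0.46 for pericytes and smooth muscle. The 3 lecticans among the 10 genes have a median of -0.14, and only Bcan of them passed the threshold. The membrane proteoglycans are spread from -0.35 (Ptprz1) to 0.46 (Cspg4), and all microglial genes lie below 0.

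Genes that work with these receptors and proteoglycans were counted on lists by role. The share over all tested genes, 20.4% higher and 19.5% lower, is the background for the count on each list. Among PDGF ligands and receptors, 3 of 6 were higher and 1 lower. Pdgfa, which encodes the PDGF-AA chain that binds PDGFRα, had 16.8 ± 0.629 RPKM in WT and 34.2 ± 2.59 RPKM in DISC1-Δ3 OPCs (SD, n = 3 each). It rose by 0.97 on the log2 scale (adjusted p = 1.83e-08), and Pdgfc rose by 0.50. Pdgfb fell by 0.18 on the log2 scale. Among 14 ligands and receptors of proteoglycans, 6 were higher and 3 lower. Ptn encodes pleiotrophin, a ligand of PTPRZ1, and rose by 0.51 on the log2 scale, from 495 ± 6.72 to 742 ± 45.4 RPKM (SD, n = 3 each), while Ptprz1 itself fell. Rtn4r rose by 0.64, and Nfasc and Rtn4rl1 fell by 0.60 and 0.44.

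Of 12 partners of the lecticans 8 were tested, of which 4 were higher and 2 lower. The tenascins diverged: Tnr, encoding tenascin-R, fell by 0.37, and Tnc, encoding tenascin-C, rose by 0.37 on the log2 scale. Hapln4 and Acan, a link protein and the lectican aggrecan, rose by 0.90 and 0.66 at levels near or under 1 RPKM, and the link protein gene Hapln1 fell by 0.23. The hyaluronan synthases Has1, Has2 and Has3 stayed under the filter. Of 24 tested genes for the synthesis of chondroitin sulphate chains, 5 were higher and 7 lower, with a median of 0.00. Papss2, which makes the sulphate donor, and the galactosyltransferase B4galt7 rose by 0.67 and 0.27, and the sulphotransferase Chst12 and the chain polymerising factor Chpf2 fell by 0.49 and 0.46. Of 21 tested genes for proteoglycan cleavage and its inhibition 3 were higher and 5 lower. The lower genes included Timp2 and Timp3, which encode protease inhibitors, at -0.25 and -0.17. Adamts8 and Mmp14 rose by 1.78 and 0.42, and Adamts1, a protease of lecticans, and Adam17 fell by 0.39 and 0.36.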

How the data were processed

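RNA of immunopanned OPCs was sequenced as single-end reads of 50 bases. Per the labels, processing used Bowtie2 2.2.5 and mm10; the counting tool and annotation are not given in the sources used here. The authors deposited an expected count, an estimate of reads per gene of which 90.2% of values above 0 were whole. The authors also deposited an RPKM for each gene and library, which scales reads for transcript length and library total and is not corrected between libraries. The 4 columns of group means by the authors were not used. Counts were rounded. Genes that reached 0.5 RPKM in 3 or more libraries entered the quasi-likelihood test of edgeR (edgeR 4.0.16, R 4.3.3), with TMM scaling, a genotype term, two-sided p and Benjamini-Hochberg adjustment over all tested genes at 0.05. All adjusted p and log2 fold changes come from this fit unless another is named. DESeq2 1.42.0, which the study names, and limma 3.58.1 were alternatives. Ratios within libraries were compared by exact permutation.

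The 10 genes and all lists were chosen with earlier results of these data known. Named genes were these 10, Disc1, the 2 largest rises and falls past the threshold on each context list, and the first 3 genes of marker lists, of which 1 is not reported here; Lims2 (named for its position), Tnc, Timp2, Timp3, Zfp488, Cnp, Gpr37l1 and the hyaluronan synthases fall outside this rule and were named after their values were seen. Symbols were matched as deposited, of which 26 read as dates. Locations are from GENCODE M21 (GRCm38, the same assembly as mm10) and promoters from RefSeq. Deviations of replicate 3 used CPM with TMM scaling, and length classes log2(CPM + 0.5) of the same values. The fits were tested on simulated counts. Alternatives were other filters, scalings and tools, the replicate number as a block, and each library left out.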

Additional observations from a re-analysis of the deposited data

How the results depend on the processing

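The counts of called genes and the 10 genes were recomputed under 16 alternatives and the ratios under 8; the lists, Disc1 and Lims2 were not. Pdgfra, Gpr17, Lhfpl3, Cspg4 and Ptprz1 kept direction and call under all 16, with log2 fold changes of 0.43 to 0.57, 0.62 to 0.76, 0.57 to 0.71, 0.40 to 0.54 and -0.44 to -0.26. Neu4 kept its direction and stayed under the threshold (0.07 to 0.23). The count of lower genes among the 10 was 2, and 1 with library totals alone and with limma on log2(RPKM + 1) or log2(RPKM + 0.1); with a library left out in turn it ran from 1 to 3. The gene lost was Bcan, also without WT replicate 2 or 3, and the gene gained without DISC1-Δ3 replicate 3 was Vcan, which passed too when scaled to the lineage list (-0.22, adjusted p = 0.0446). The sign of Cspg5 turned with library totals (0.0061) and in both limma fits (0.0037 each). That of Ncan turned with library totals (0.0673), in the limma fits (0.068 and 0.0683) and without WT replicate 1 or DISC1-Δ3 replicate 3, running from -0.0654 to 0.032 with each library left out. Over all genes the lower count of 2691 became 1774 and 1763 in the limma fits, and 1836 with library totals alone. The limma fits used RPKM without TMM scaling, so they share the scaling by library totals and are not independent of that alternative. The labels do not say whether same-numbered WT and DISC1-Δ3 libraries share more than a number. Their deviations from the group means correlated at 0.0444, 0.0263 and -0.0288, against -0.0526 to 0.0273 for pairs of unlike number. At 3 libraries per genotype these correlations cannot exclude a pairing. With the replicate number as a block, 6 of the 10 genes and 5429 of all tested genes were called, against 6 and 5498, and no call among the 10 changed; the cause of the changes above was not tested. At 3 libraries per genotype the ratios could not reach p under 0.05, and they kept their direction with read counts and with each library left out.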

Other observations

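Among relatives of Neu4, Lhfpl3 and Gpr17, 8 of 12 genes in the table were tested, of which 2 were higher and 3 lower. The lysosomal sialidase gene Neu1 fell by 0.28 on the log2 scale (adjusted p = 0.00160), from 16.8 ± 0.847 to 14.7 ± 0.558 RPKM (SD, n = 3 each). Of the LHFPL family, Lhfpl4 and Lhfp rose by 0.21 and 0.19, smaller changes than that of Lhfpl3. The leukotriene receptor gene Cysltr1 fell by 0.47 (adjusted p = 0.0129).

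The list of oligodendroglial lineage genes that was used for scaling moved both ways, 4 of 12 higher and 4 lower. The lower genes were Zfp488, Cnp, Enpp6 and Gpr37l1, at -0.36, -0.20, -0.88 and -0.27, of which Enpp6 and Gpr37l1 encode membrane proteins. The transcription factor genes Olig1 and Olig2 had log2 fold changes of 0.31 and 0.53 (adjusted p = 3.04e-05 and 7.19e-07), and Sox10 was at 0.11 (adjusted p = 0.151).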
